A study of Homo sapiens with 9 samples.

Results

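The genes described here are MYC and 58 genes whose products work in the nucleolus on the making of ribosomes, followed in FaDu, a cell line long established from a human squamous carcinoma of the hypopharynx. They were taken by gene name from the table of counts for 58735 genes, where all 59 names were found, and all 59 were among the 16812 genes with enough counts to test. By role they comprise the transcription factor MYC, 7 genes of RNA polymerase I transcription, 8 genes of small nucleolar ribonucleoproteins (snoRNPs) and their chaperone, 5 abundant nucleolar proteins, 19 factors of small subunit processing and 19 factors of large subunit assembly.

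Ribosomes are built in the nucleolus. RNA polymerase I copies the ribosomal DNA into a long precursor RNA, snoRNPs guide the chemical modification of that RNA, and large sets of assembly factors cut, fold and package it with ribosomal proteins into the small and the large subunit. MYC is a transcription factor that binds the hexamer CACGTG with its partner MAX, and genes of ribosome biogenesis are among its best known targets in dividing and cancer cells.

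Bulk RNA sequencing covered 9 cultures, 3 per group. By their labels, KD_OE cells carried AMIGO2 knockdown with CAPN2 overexpression, KD_NC cells carried AMIGO2 knockdown, and NC_NC cells were wild-type normal controls. No treatment was recorded for any of them. AMIGO2 is an adhesion protein of the cell surface, and CAPN2 is the catalytic subunit of a calpain, a protease that needs calcium. All cultures are of 1 cell line, so p-values measure the spread between cultures of that line, and how the knockdown and the overexpression were made is not given in the sources used here. In bulk RNA, fewer cells of a type and less RNA per cell cannot be told apart.

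Totals ran from 15158607 to 19737562 counts per library. Levels are given as CPM, counts scaled to a common library size with TMM factors, which correct for differences in library composition, and a change is called at an adjusted p under 0.05 in edgeR's quasi-likelihood test over all 16812 genes. AMIGO2 had 42.8, 35.3 and 38.8 CPM in KD_OE, 24.5, 31.3 and 27.3 CPM in KD_NC, and 29.5, 26.1 and 27.2 CPM in NC_NC. No fall of AMIGO2 was therefore seen in the libraries labelled knockdown (KD_NC against NC_NC, log2 fold change 0.01 ± 0.115 (SE), adjusted p = 0.971), and the groups are called by their labels throughout. CAPN2 had 498, 498 and 500.0 CPM in KD_OE, 395, 424 and 435 CPM in KD_NC, and 447, 474 and 466 CPM in NC_NC, which is higher in KD_OE than in KD_NC (log2 0.26 ± 0.0794, adjusted p = 0.012) without a called difference from NC_NC (log2 0.11 ± 0.0794, adjusted p = 0.254). All 10 squamous epithelial markers were tested. Their summed level lay between 4945 and 5502 CPM in KD_OE, 4384 and 5439 CPM in KD_NC, and 8216 and 8707 CPM in NC_NC. Single markers moved both ways, with log2 fold changes from -2.24 to 0.69 in KD_OE against NC_NC. They ran from -1.17 to 1.23 in KD_OE against KD_NC and from -1.88 to 0.26 in KD_NC against NC_NC. Counts were high enough to test for 2 of 8 endothelial, 1 of 8 fibroblast and 2 of 9 blood markers, while KDR, EMCN, LUM, PDGFRA, HBB and HBA1 were at 0 in all libraries. Summed endothelial markers ran from 16.3 to 17.2 CPM in KD_OE, 43.6 to 50.2 CPM in KD_NC and 18.3 to 22.7 CPM in NC_NC, carried mostly by CDH5. Fibroblast markers, nearly all COL1A1, summed to 13.5 to 15.6 CPM in KD_OE, 11.0 to 14.0 CPM in KD_NC and 8.19 to 9.73 CPM in NC_NC, and blood markers, mostly CD14, to 7.1 to 11.2, 20 to 26.2 and 16.4 to 21.0 CPM in the same groups. The part of these differences in the results was not tested. KD_NC libraries differed more among themselves than the others did, with a mean chi-square per gene of 20.9 to 21.5 between pairs. The values were 3.01 to 7.52 within KD_OE, 2.69 to 5.04 within NC_NC and 29 to 138 between groups. In the test, all 9 libraries share the spread of each gene, so this difference between groups is not modelled. P-values can therefore be too small in comparisons with KD_NC and too large in KD_OE against NC_NC.

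Most nucleolar genes were lower in KD_OE than in either other group, and about as many were lower in KD_NC than in NC_NC as were not called. The summed level of all 59 members, MYC included, was 5242, 5242 and 5349 CPM in KD_OE, 7702, 7248 and 7826 CPM in KD_NC, and 9093, 9127 and 9058 CPM in NC_NC. No library of a group reached the range of another group in this sum. By role, the mean sums were 557 CPM in KD_OE, 793 CPM in KD_NC and 1076 CPM in NC_NC for RNA polymerase I transcription, 643, 1043 and 1405 CPM for snoRNPs, 1798, 2444 and 2799 CPM for abundant nucleolar proteins, 1058, 1445 and 1685 CPM for small subunit processing, and 985, 1593 and 1892 CPM for large subunit assembly. MYC stood apart from this order, with means of 237 ± 10.6 CPM in KD_OE, 275 ± 19.7 CPM in KD_NC and 235 ± 5.74 CPM in NC_NC (SD, n = 3 each). For KD_OE against NC_NC, 53 of the 59 members were lower and 0 were higher, where 28.4% of all tested genes were lower and 27.9% were higher. The members' median log2 fold change was -0.88, that of all genes tested was 0.02, and 24 members were called at least 2-fold lower, as were 7.49% of all tested genes. For KD_OE against KD_NC, 49 members were lower and 0 higher, beside 25.6% lower and 23.7% higher among all tested genes, with medians of -0.52 for the members and 0.01 for all genes. For KD_NC against NC_NC, 30 members were lower and 1, MYC, was higher, beside 18.5% lower and 16.0% higher among all tested genes, with medians of -0.30 and -0.01. These comparisons share libraries with one another, so their values stand side by side and are not independent of each other. Without MYC, the 58 nucleolar genes counted 53, 48 and 30 lower members in those comparisons. At least 1 case of leaving out a single library cost 3 of the 53 calls, 3 of the 49 calls and 11 of the 31 calls, and such cases added calls for 1, 7 and 8 further members.

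**Figure D1:**
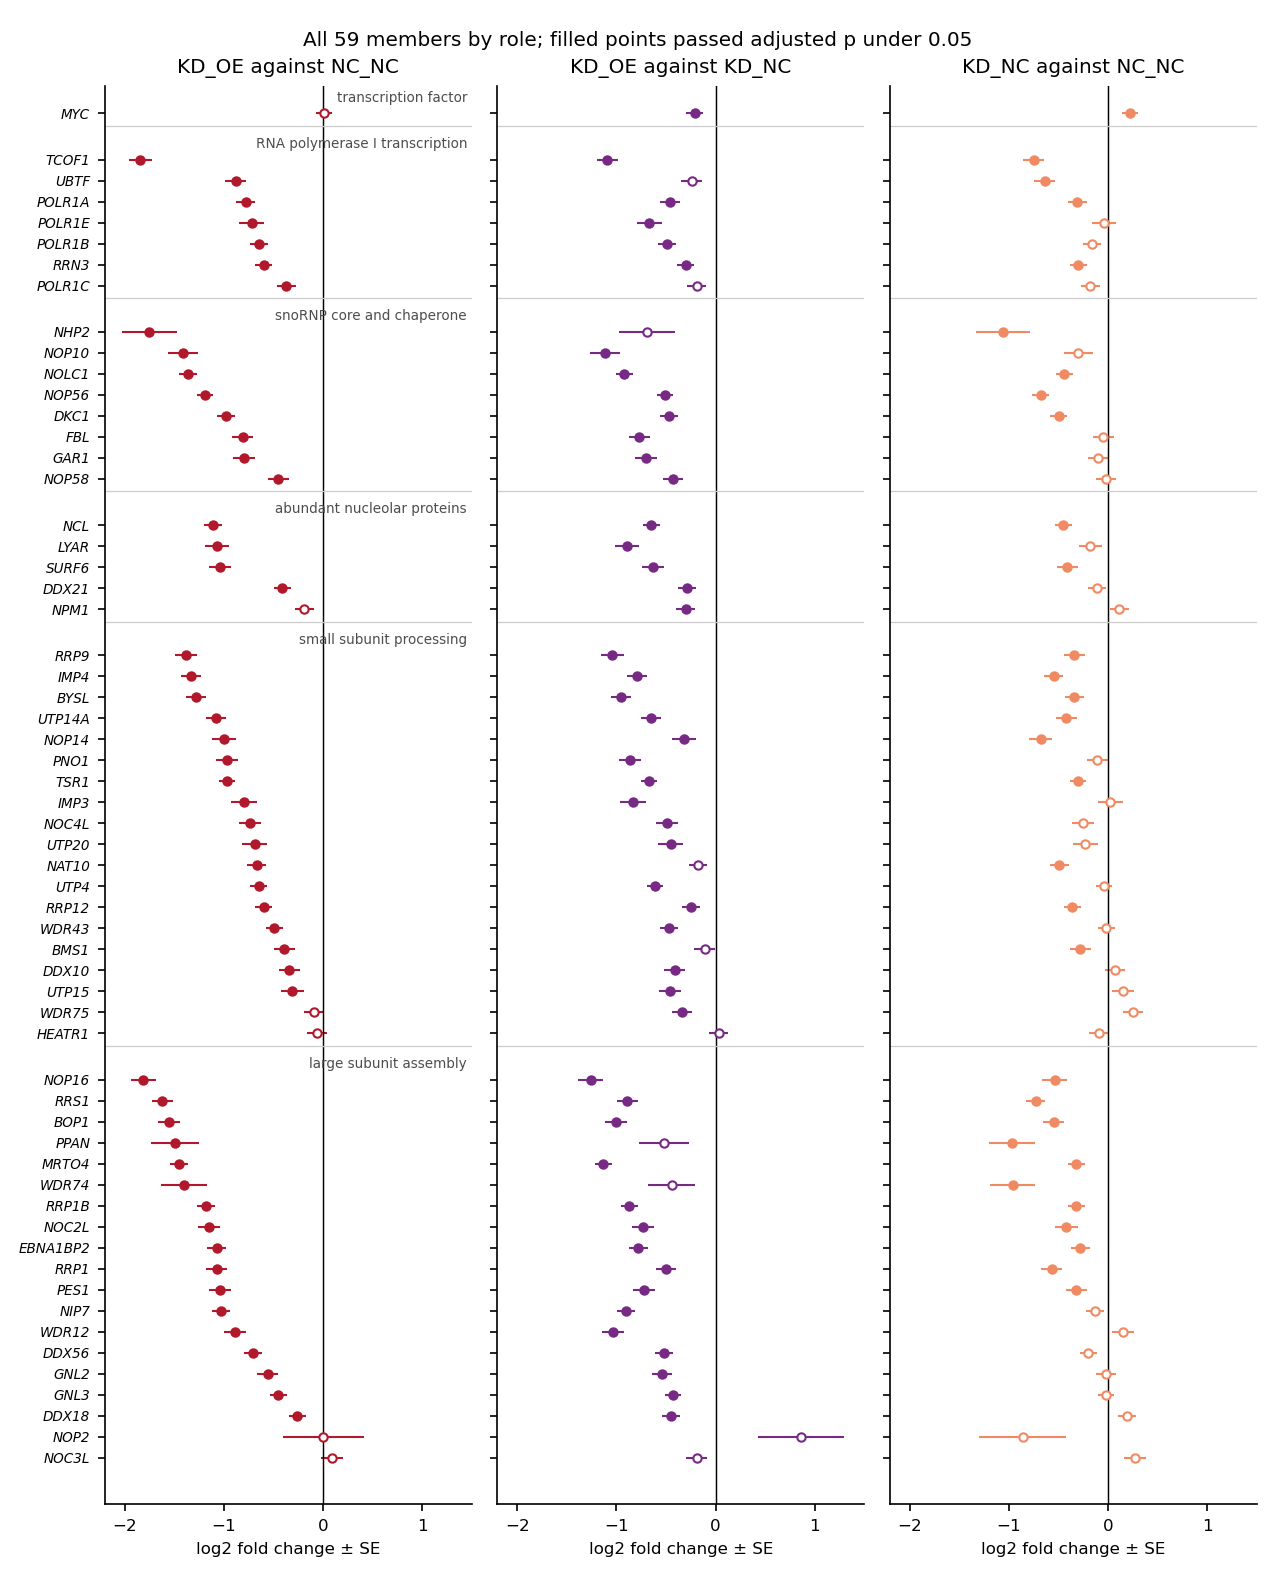
Log2 fold changes ± SE of all 59 members, ordered by role and then by the change in KD_OE against NC_NC, in the 3 comparisons (n = 3 libraries per group). Filled points passed an adjusted p under 0.05. In KD_OE against NC_NC, 53 points are filled and all of these lie left of 0. MYC lies at 0.01.

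**Figure D2:**
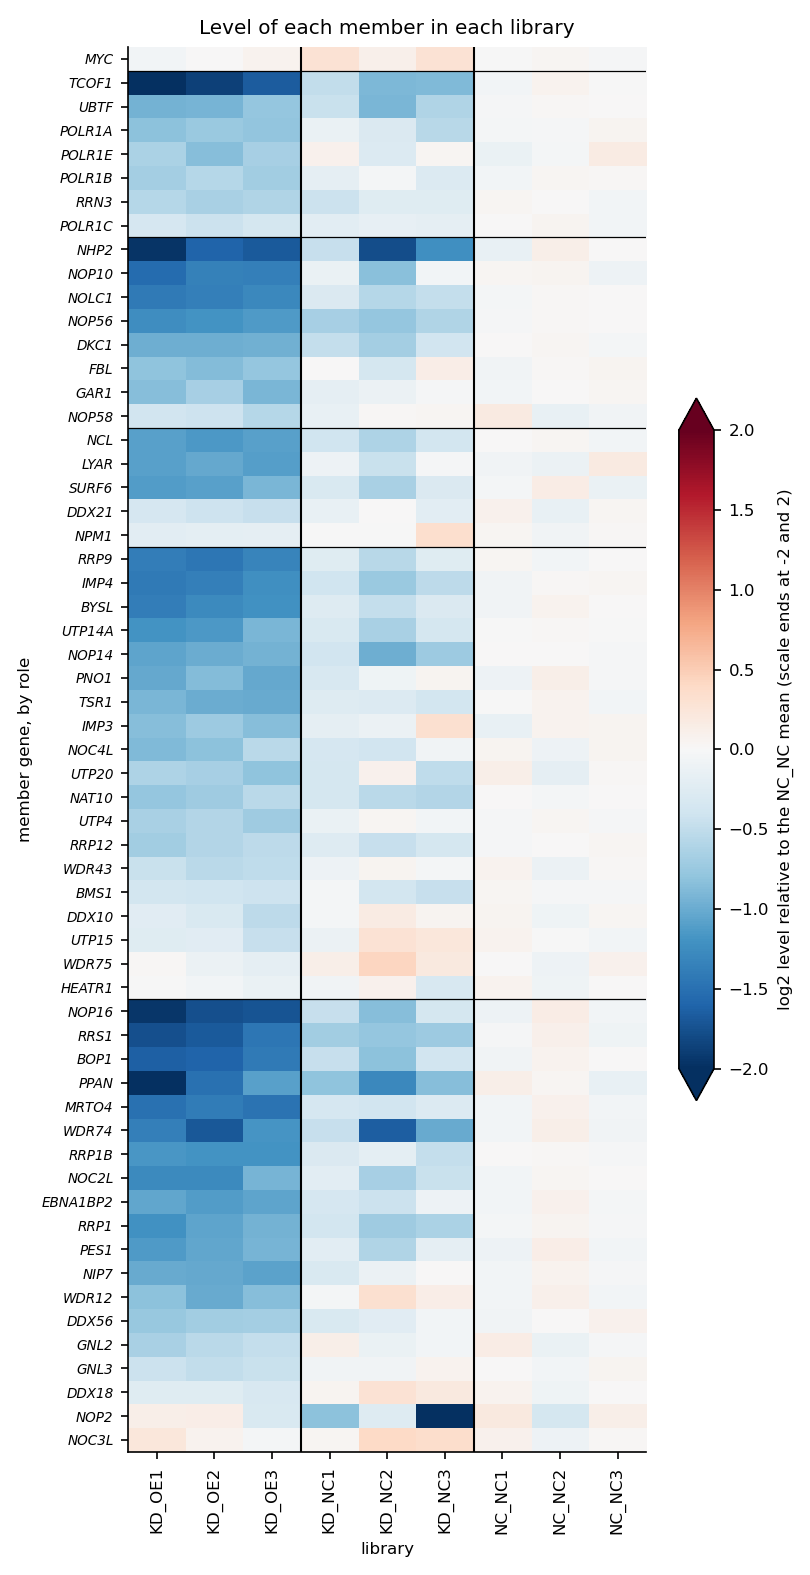
Log2 level of each member (down) in each library (across) relative to the NC_NC mean of that member, with the colour scale ending at -2 and 2. The KD_OE columns are the bluest for most members, and KD_NC replicate 2 stands out in NHP2 and WDR74 at 17.9 and 12 CPM.

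Promoter sequences show where the MYC hexamer lies. RefSeq promoters (GRCh38.p14, 250 bases before to 50 bases after the gene's start in RefSeq) were matched for 49 of the 59 members. No promoter was matched for TCOF1, RRS1, BOP1, NOLC1, RRP1B, POLR1E, RRP12, NOP58, DDX18 and MYC. Their log2 fold changes in KD_OE against NC_NC ran from -1.84 in TCOF1 to 0.01 in MYC. These unmatched members enter none of the promoter counts and medians given here. CACGTG, a palindrome read alike on both strands, was in 19 of them (38.8%), in 10.1% of the promoters of 10947 tested genes and in 7.43% of all 27305 promoters. The related letters CACGCG, searched on both strands, were in 18 member promoters (36.7%, against 17.9% of tested genes and 11.4% of all promoters). CTCGCGAG was in 3 (6.12%, against 1.97% and 1.06%) and GGCGGGAA in 1 (2.04%, against 5.05% and 3.18%), and no match overlapped one of another motif. Median GC content was 63.7% in member promoters and 65.0% in those of tested genes. Shown here are the 4 matched promoters with CACGTG whose genes had the lowest adjusted p in KD_OE against NC_NC, with CACGTG in capitals.
MRTO4: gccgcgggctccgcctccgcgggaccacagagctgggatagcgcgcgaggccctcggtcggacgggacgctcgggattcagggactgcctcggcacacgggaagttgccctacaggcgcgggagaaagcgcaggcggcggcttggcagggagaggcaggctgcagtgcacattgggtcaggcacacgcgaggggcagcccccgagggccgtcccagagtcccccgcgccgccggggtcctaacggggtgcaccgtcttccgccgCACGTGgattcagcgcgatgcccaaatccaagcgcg
IMP4: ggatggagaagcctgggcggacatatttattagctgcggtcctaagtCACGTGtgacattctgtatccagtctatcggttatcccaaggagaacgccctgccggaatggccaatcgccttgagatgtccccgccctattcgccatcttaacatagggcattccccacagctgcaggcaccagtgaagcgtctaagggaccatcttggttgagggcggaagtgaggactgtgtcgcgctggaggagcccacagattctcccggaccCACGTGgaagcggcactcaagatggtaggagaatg
BYSL: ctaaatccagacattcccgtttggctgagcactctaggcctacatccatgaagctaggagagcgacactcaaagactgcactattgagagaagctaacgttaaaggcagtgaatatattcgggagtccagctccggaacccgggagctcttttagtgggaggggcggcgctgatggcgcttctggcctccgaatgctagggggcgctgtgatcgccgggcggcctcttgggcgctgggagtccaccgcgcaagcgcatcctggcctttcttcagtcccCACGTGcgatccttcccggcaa
RRP9: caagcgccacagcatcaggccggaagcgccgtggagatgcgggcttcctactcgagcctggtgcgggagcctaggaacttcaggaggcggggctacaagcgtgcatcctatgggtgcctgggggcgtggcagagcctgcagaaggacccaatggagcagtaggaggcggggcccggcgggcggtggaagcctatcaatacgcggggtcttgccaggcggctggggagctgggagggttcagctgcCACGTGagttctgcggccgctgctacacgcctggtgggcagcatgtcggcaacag
The MRTO4 window is chr1:19251555-19251854 on the plus strand, and its CACGTG begins 15 bases past the start. The IMP4 window is chr2:130342647-130342946 on the plus strand, with matches beginning 203 bases before and 16 bases past the start. BYSL is given at chr6:41921249-41921548 on the plus strand, with its match 29 bases past the start. RRP9 is given at chr3:51941855-51942154 on the minus strand, with its match 5 bases before the start. Each start meant here is the RefSeq start, which differs from the gene start in the table of counts. The windows of MRTO4, IMP4 and BYSL lie wholly within the spans given for these genes from that table. A match describes letters in the window, and binding was not measured. The 19 members with CACGTG had a median log2 fold change of -1.0 in KD_OE against NC_NC, and the 30 without it -0.80. In KD_OE against KD_NC these medians were -0.65 and -0.49, and in KD_NC against NC_NC they were -0.32 and -0.22. Both sets ranged widely in KD_OE against NC_NC, from -1.45 to 0.09 with the hexamer and from -1.81 to -0.06 without it.

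MYC (ENSG00000136997) had 226, 237 and 248 CPM in KD_OE, 286, 252 and 286 CPM in KD_NC, and 233, 242 and 231 CPM in NC_NC. Every KD_NC library lay above every library of the other groups, while KD_OE and NC_NC overlapped. MYC was 1.17-fold higher in KD_NC than in NC_NC (log2 0.22 ± 0.0836, adjusted p = 0.0455) and 1.16-fold lower in KD_OE than in KD_NC (log2 -0.21 ± 0.0835, adjusted p = 0.0419). The first call was lost in 7 of 9 cases of leaving out 1 library, all but KD_OE replicate 1 and KD_NC replicate 2 (log2 0.19 to 0.24 in those 7, adjusted p up to 0.147). The second was lost in 6 of 9 cases, all but KD_OE replicate 3, KD_NC replicate 2 and NC_NC replicate 2 (log2 -0.22 to -0.19 in those 6, adjusted p up to 0.106). KD_OE against NC_NC gave 0.01 with a 95% interval from -0.16 to 0.19 (adjusted p = 0.926). After correction for GC content and length MYC gave 0.19 in KD_OE against NC_NC (adjusted p = 0.00829), -0.14 in KD_OE against KD_NC (adjusted p = 0.0502) and 0.33 in KD_NC against NC_NC (adjusted p = 0.000153).

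**Figure D3:**
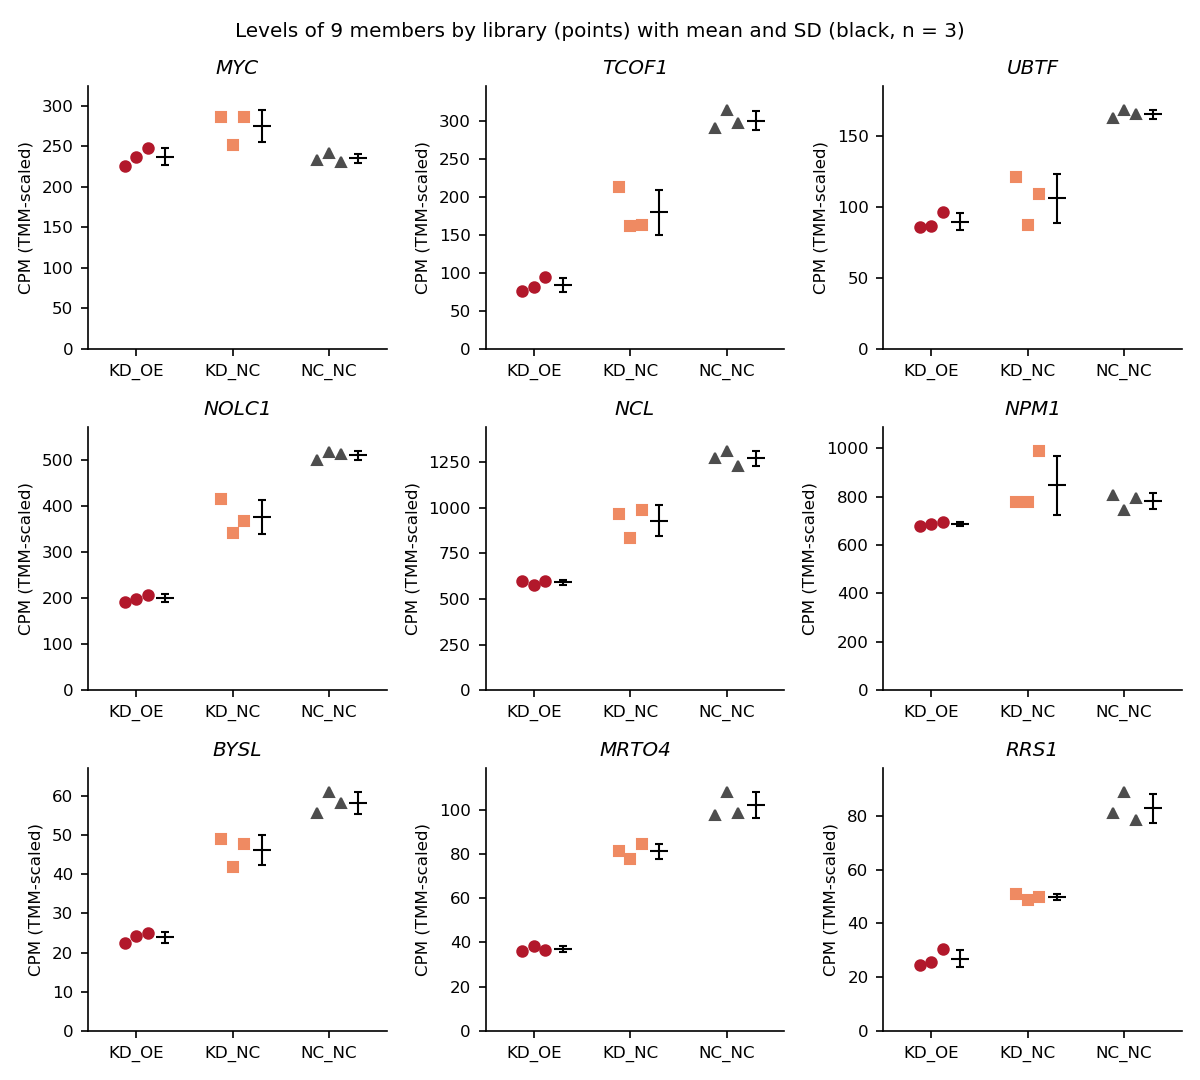
TMM-scaled CPM of 9 members in every library (points) with the group mean and SD (black, n = 3), on axes that start at 0. MYC spans 226 to 286 CPM over all libraries, while TCOF1 spans 75.9 to 94.5 CPM in KD_OE, 162 to 214 CPM in KD_NC and 291 to 315 CPM in NC_NC.

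Genes of RNA polymerase I transcription were lower in KD_OE than in NC_NC in 7 of 7 cases, with a median of -0.72, and in KD_OE than in KD_NC in 5 of 7 cases, with a median of -0.46. In KD_NC against NC_NC 4 of 7 were lower, with a median of -0.30, and 0 of the 7 were higher in any comparison. Of all tested genes, 28.4%, 25.6% and 18.5% were lower in these comparisons, and 27.9%, 23.7% and 16.0% were higher. TCOF1 (ENSG00000070814, GRCh38 chromosome 5, 150357629 to 150400308, plus strand) encodes treacle, a nucleolar phosphoprotein needed for ribosomal DNA transcription. TCOF1 had 75.9, 82.2 and 94.5 CPM in KD_OE, 214, 162 and 163 CPM in KD_NC, and 291, 315 and 298 CPM in NC_NC. Its 3 groups did not overlap. It was 3.58-fold lower in KD_OE than in NC_NC (log2 -1.84 ± 0.112, adjusted p = 1.44e-10), the largest change among the 59 members, 2.13-fold lower than in KD_NC (log2 -1.09 ± 0.11, adjusted p = 1.79e-07), and 1.68-fold lower in KD_NC than in NC_NC (log2 -0.75 ± 0.108, adjusted p = 3.27e-05).

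UBTF (ENSG00000108312, chromosome 17, 44205033 to 44221626, minus strand), the factor that coats ribosomal DNA and its promoter, had 85.5, 86.8 and 96.2 CPM in KD_OE, 121, 87.2 and 109 CPM in KD_NC, and 162, 168 and 165 CPM in NC_NC. KD_OE and KD_NC overlapped, and both lay below every NC_NC library. UBTF was lower in KD_NC than in NC_NC (log2 -0.64 ± 0.104, adjusted p = 0.000111) and in KD_OE than in NC_NC (log2 -0.88 ± 0.105, adjusted p = 8.35e-07), and KD_OE against KD_NC gave -0.24 ± 0.105 (adjusted p = 0.0639). That last comparison was called without KD_NC replicate 2 (-0.40, adjusted p = 0.000939) or KD_OE replicate 3 (-0.30, adjusted p = 0.047), with the correction for GC content and length (-0.33, adjusted p = 0.00127), with no count filter (-0.28, adjusted p = 0.0282) and with DESeq2 (-0.26, adjusted p = 0.0479). POLR1B (ENSG00000125630, chromosome 2, 112541915 to 112577150, plus strand), the second-largest subunit of the polymerase, had 56.5, 60.8 and 56.1 CPM in KD_OE, 80.0, 88.1 and 74.9 CPM in KD_NC, and 87.0, 92.5 and 92.1 CPM in NC_NC. Here KD_OE stood apart and KD_NC overlapped NC_NC. The log2 fold changes were -0.65 ± 0.0913 in KD_OE against NC_NC (adjusted p = 6.65e-06), -0.49 ± 0.0912 in KD_OE against KD_NC (adjusted p = 0.000204) and -0.16 ± 0.0902 in KD_NC against NC_NC (adjusted p = 0.182).

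The largest subunit, POLR1A, fell by 0.78 on the log2 scale in KD_OE against NC_NC, by 0.46 in KD_OE against KD_NC and by 0.31 in KD_NC against NC_NC. The last of these calls was lost without NC_NC replicate 3 (-0.29, adjusted p = 0.0738), and its value was -0.20 without KD_NC replicate 3. RRN3, which brings the polymerase to the promoter, fell by 0.60, 0.30 and 0.30 in the same comparisons. POLR1E, a further subunit, fell by 0.72 and 0.67 in the comparisons of KD_OE and gave -0.04 in KD_NC against NC_NC (adjusted p = 0.814). POLR1C, a subunit shared with RNA polymerase III, was lower only by the test of KD_OE against NC_NC (log2 -0.37 ± 0.0965, adjusted p = 0.00286), with -0.19 and -0.18 in the others. Exons of POLR1C share 6.27% and 2.32% of their bases with XPO5 and YIPF3 on the other strand, whose reads cannot be told apart without strand.

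All 8 snoRNP genes were lower in KD_OE than in NC_NC, with a median of -1.08. KD_OE against KD_NC called 7 of 8 lower with a median of -0.70, and KD_NC against NC_NC called 4 of 8 lower with a median of -0.37. The shares of all tested genes called lower were 28.4%, 25.6% and 18.5% in this order. NOLC1 (ENSG00000166197, chromosome 10, 102152176 to 102163871, plus strand), a scaffold that chaperones snoRNPs, had 192, 199 and 208 CPM in KD_OE, 417, 343 and 369 CPM in KD_NC, and 500.0, 518 and 515 CPM in NC_NC. The 3 groups were separate. NOLC1 was 2.56-fold lower in KD_OE than in NC_NC (log2 -1.36 ± 0.0886, adjusted p = 3.6e-10), 1.89-fold lower than in KD_NC (log2 -0.92 ± 0.0879, adjusted p = 9.73e-08), and 1.36-fold lower in KD_NC than in NC_NC (log2 -0.44 ± 0.0869, adjusted p = 0.000657).

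Box C/D snoRNPs carry the methyltransferase FBL with NOP56 and NOP58. NOP56 (ENSG00000101361, chromosome 20, 2652145 to 2658393, plus strand) had 107, 110.0 and 116 CPM in KD_OE, 159, 148 and 167 CPM in KD_NC, and 248, 258 and 254 CPM in NC_NC. Its groups were separate, with log2 fold changes of -1.19 ± 0.0834 in KD_OE against NC_NC (adjusted p = 8.69e-10), -0.51 ± 0.0828 in KD_OE against KD_NC (adjusted p = 4.89e-05) and -0.68 ± 0.0822 in KD_NC against NC_NC (adjusted p = 4.45e-06). Neither partner was called in KD_NC against NC_NC, where FBL gave -0.05 (adjusted p = 0.762) and NOP58 -0.02 (adjusted p = 0.885), while both were lower in KD_OE than in KD_NC (-0.77 and -0.43) and than in NC_NC (-0.81 and -0.45). The difference between NOP56 and its partners was not tested.

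Box H/ACA snoRNPs carry the pseudouridine synthase DKC1 with NHP2, NOP10 and GAR1. DKC1 (ENSG00000130826, chromosome X, 154762742 to 154777689, plus strand) had 139, 139 and 141 CPM in KD_OE, 198, 172 and 212 CPM in KD_NC, and 275, 283 and 267 CPM in NC_NC. The groups were separate, and the log2 fold changes were -0.98 ± 0.0884 in KD_OE against NC_NC (adjusted p = 2.38e-08), -0.47 ± 0.088 in KD_OE against KD_NC (adjusted p = 0.000185) and -0.50 ± 0.0874 in KD_NC against NC_NC (adjusted p = 0.000207). NOP10 (ENSG00000182117, chromosome 15, 34341713 to 34343177, minus strand) had 22.8, 26.1 and 25.8 CPM in KD_OE, 60.5, 37.4 and 64.0 CPM in KD_NC, and 68.0, 69.2 and 62.1 CPM in NC_NC. KD_OE was below all other libraries and KD_NC reached into the NC_NC range, with log2 fold changes of -1.41 ± 0.151 (adjusted p = 2.64e-07) and -1.11 ± 0.151 (adjusted p = 7.5e-06) against NC_NC and KD_NC. NHP2 varied most within KD_NC, at 44.2, 17.9 and 26.2 CPM, beside 15.6, 20 and 19.0 CPM in KD_OE and 55.3, 66.3 and 61.6 CPM in NC_NC. Its fall in KD_NC against NC_NC (log2 -1.06 ± 0.27, adjusted p = 0.0137) was lost without KD_NC replicate 3 (-0.99, adjusted p = 0.0573) or NC_NC replicate 2 (-1.0, adjusted p = 0.0583). KD_OE against KD_NC was called for NHP2 without KD_NC replicate 2 (-0.99, adjusted p = 0.000101) and with the GC correction (-0.69, adjusted p = 0.0481). NHP2 shares 27.42% of its exon bases with RMND5B on the other strand. GAR1 gave -0.80, -0.70 and -0.10 in KD_OE against NC_NC, KD_OE against KD_NC and KD_NC against NC_NC, the last without a call.

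The abundant nucleolar proteins comprise NCL and NPM1, RNA-binding proteins that make up much of the nucleolus, the RNA helicase DDX21, LYAR and SURF6. In KD_OE against KD_NC all 5 were lower, with a median of -0.63. Against NC_NC, KD_OE had 4 of 5 lower with a median of -1.04, and KD_NC had 2 of 5 lower with a median of -0.18. Lower in these comparisons were 25.6%, 28.4% and 18.5% of all tested genes, in the order given. NCL (ENSG00000115053, chromosome 2, 231453531 to 231483641, minus strand) had 598, 577 and 600.0 CPM in KD_OE, 968, 834 and 988 CPM in KD_NC, and 1276, 1313 and 1232 CPM in NC_NC. The groups were separate. NCL was 2.15-fold lower in KD_OE than in NC_NC (log2 -1.11 ± 0.087, adjusted p = 3.82e-09), 1.57-fold lower than in KD_NC (log2 -0.65 ± 0.0864, adjusted p = 4.84e-06), and 1.37-fold lower in KD_NC than in NC_NC (log2 -0.45 ± 0.0861, adjusted p = 0.000468).

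NPM1 had 678, 685 and 695 CPM in KD_OE, 776, 776 and 989 CPM in KD_NC, and 808, 746 and 794 CPM in NC_NC. Each KD_OE library was below all 6 others, yet only KD_OE against KD_NC was called (log2 -0.30 ± 0.0956, adjusted p = 0.0129, with -0.19 without KD_NC replicate 3). KD_OE against NC_NC gave -0.19 with a 95% interval from -0.39 to 0.01 (adjusted p = 0.0986), and was called without KD_NC replicate 3 (-0.20, adjusted p = 0.00884), with only the groups compared (-0.18, adjusted p = 0.00444) and with the GC correction (-0.27, adjusted p = 0.00548). SURF6 had 48.2, 49.5 and 55.8 CPM in KD_OE, 84.8, 67.1 and 85.6 CPM in KD_NC, and 102, 117 and 95.5 CPM in NC_NC, without overlap. Its log2 fold changes were -1.04 ± 0.111 in KD_OE against NC_NC (adjusted p = 2.21e-07), -0.63 ± 0.111 in KD_OE against KD_NC (adjusted p = 0.000114) and -0.41 ± 0.109 in KD_NC against NC_NC (adjusted p = 0.00694), the last lost without KD_NC replicate 2 (-0.27, adjusted p = 0.0538) or NC_NC replicate 2 (-0.32, adjusted p = 0.0576). LYAR had 21.9, 23.0 and 21.7 CPM in KD_OE, 43.5, 34.3 and 46.1 CPM in KD_NC, and 44.4, 42.9 and 52.9 CPM in NC_NC. LYAR was lower in KD_OE than in NC_NC (log2 -1.07 ± 0.121, adjusted p = 4.26e-07) and than in KD_NC (log2 -0.89 ± 0.121, adjusted p = 6.31e-06), with overlap and no call between KD_NC and NC_NC (-0.18, adjusted p = 0.251). DDX21 fell by 0.41 and 0.29 in the comparisons of KD_OE with NC_NC and with KD_NC, and gave -0.11 in KD_NC against NC_NC (adjusted p = 0.344).

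Small subunit factors act in the particle that forms around the U3 snoRNA on the young precursor and in the later steps that finish the subunit. KD_OE against NC_NC called 17 of 19 lower with a median of -0.69, KD_OE against KD_NC 16 of 19 with a median of -0.47, and KD_NC against NC_NC 9 of 19 with a median of -0.25. The same comparisons called 28.4%, 25.6% and 18.5% of all tested genes lower. RRP9 (ENSG00000114767, chromosome 3, 51933430 to 51941941, minus strand), a protein of the U3 snoRNP, had 15.4, 14.7 and 16.0 CPM in KD_OE, 33.9, 27.1 and 33.7 CPM in KD_NC, and 41.3, 38.4 and 40.2 CPM in NC_NC. Its groups were separate. RRP9, whose promoter holds CACGTG just before the RefSeq start, was 2.6-fold lower in KD_OE than in NC_NC (log2 -1.38 ± 0.113, adjusted p = 6.63e-09). It was 2.05-fold lower in KD_OE than in KD_NC (log2 -1.04 ± 0.113, adjusted p = 4.85e-07). The fall in KD_NC against NC_NC (-0.34 ± 0.108, adjusted p = 0.019) was lost without KD_NC replicate 2 (-0.21, adjusted p = 0.14), without NC_NC replicate 1 (-0.32, adjusted p = 0.0715) or 3 (-0.34, adjusted p = 0.0632), and with the correction for GC content and length (-0.16, adjusted p = 0.15).

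BYSL (ENSG00000112578, chromosome 6, 41921188 to 41933046, plus strand), which acts late in small subunit maturation, had 22.4, 24.2 and 25.1 CPM in KD_OE, 48.9, 41.8 and 47.8 CPM in KD_NC, and 55.5, 61.0 and 58.2 CPM in NC_NC. The groups did not overlap. BYSL was 2.43-fold lower in KD_OE than in NC_NC (log2 -1.28 ± 0.102, adjusted p = 4.07e-09) and 1.93-fold lower than in KD_NC (log2 -0.95 ± 0.101, adjusted p = 3.8e-07), and its fall in KD_NC against NC_NC (-0.34 ± 0.0977, adjusted p = 0.0114) was lost without KD_NC replicate 2 (-0.24, adjusted p = 0.0771) or NC_NC replicate 2 (-0.30, adjusted p = 0.0595). IMP4 (ENSG00000136718, chromosome 2, 130342225 to 130347810, plus strand), a partner of the U3 snoRNA, had 36.3, 37.7 and 41.2 CPM in KD_OE, 73.3, 58.1 and 67.4 CPM in KD_NC, and 92.4, 98.7 and 99.3 CPM in NC_NC. IMP4 was separate in all 3 groups, with log2 fold changes of -1.33 ± 0.102 in KD_OE against NC_NC (adjusted p = 2.58e-09), -0.79 ± 0.101 in KD_OE against KD_NC (adjusted p = 3.47e-06) and -0.55 ± 0.0986 in KD_NC against NC_NC (adjusted p = 0.00029). It shares 3.24% of its exon bases with CCDC115 on the other strand.

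NOP14 (ENSG00000087269, chromosome 4, 2937933 to 2963385, minus strand) had 32.7, 34.2 and 35.4 CPM in KD_OE, 52.1, 34.4 and 41.2 CPM in KD_NC, and 68.5, 68.5 and 67.1 CPM in NC_NC. KD_OE and KD_NC overlapped through KD_NC replicate 2, and both lay below NC_NC. NOP14 fell in KD_NC against NC_NC (log2 -0.68 ± 0.119, adjusted p = 0.000229) and in KD_OE against NC_NC (log2 -1.0 ± 0.121, adjusted p = 1e-06). The call in KD_OE against KD_NC (-0.32 ± 0.121, adjusted p = 0.035) was lost without KD_NC replicate 1 (-0.16, adjusted p = 0.209), without KD_OE replicate 1 (-0.32, adjusted p = 0.0824) or 2 (-0.33, adjusted p = 0.0797), and with the correction for GC content and length (-0.23, adjusted p = 0.0626), and its value was -0.49 without KD_NC replicate 2. NOP14 overlaps NOP14-AS1 on the other strand over 17.1% of its exon bases, and NOP14-AS1 had 40.24% of its mean count.

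Of the further small subunit factors, UTP14A fell by 1.08 on the log2 scale in KD_OE against NC_NC, PNO1 and TSR1 by 0.97 each, and IMP3 by 0.80. NOC4L, UTP20, the RNA acetyltransferase NAT10, UTP4, RRP12 and WDR43 fell by 0.74, 0.69, 0.67, 0.65, 0.60 and 0.49, and the GTPase BMS1 by 0.39. Smaller falls of 0.34 in the helicase DDX10 and 0.31 in UTP15 were lost without KD_OE replicate 3 (-0.26, adjusted p = 0.0663, and -0.24, adjusted p = 0.117), and that of UTP15 also without NC_NC replicate 1 (-0.29, adjusted p = 0.0836) or 2 (-0.32, adjusted p = 0.0533). Both calls were also lost with upper-quartile factors (-0.24, adjusted p = 0.0606, and -0.21, adjusted p = 0.124). That of UTP15 was lost with a mean of at least 5 CPM too (-0.22, adjusted p = 0.101). HEATR1 had 134, 130.0 and 123 CPM in KD_OE, 128, 143 and 108 CPM in KD_NC, and 142, 127 and 135 CPM in NC_NC, so the groups overlapped, with -0.06 in KD_OE against NC_NC (95% interval from -0.27 to 0.14). HEATR1 shares 23.15% of its exon bases with LGALS8 on the other strand, which had 67.95% of its mean count. WDR75 gave -0.09 in KD_OE against NC_NC (adjusted p = 0.449) and fell by 0.34 in KD_OE against KD_NC (adjusted p = 0.00848). HEATR1, UTP4, UTP15, WDR43 and WDR75 belong to the same subcomplex, which binds first to the precursor, and their log2 fold changes in KD_OE against NC_NC ran from -0.65 in UTP4 to -0.06 in HEATR1. In KD_NC against NC_NC the 9 lower factors were IMP4, NOP14, RRP9, BYSL, NAT10 (-0.49), UTP14A (-0.42), RRP12 (-0.36), TSR1 (-0.30) and BMS1 (-0.28), and the call of BMS1 was lost in 8 of 9 cases of leaving out 1 library, at -0.29 to -0.20. The call of RRP12 was lost with the GC correction (-0.15, adjusted p = 0.0883). Of the 19 factors, 15 gave negative and 4 positive values in KD_NC against NC_NC, the highest 0.25 in WDR75 (adjusted p = 0.0626). WDR75 was called higher with DESeq2 (0.26, adjusted p = 0.0499), upper-quartile factors (0.29) or a mean of at least 5 CPM (0.28). It was also called without KD_NC replicate 1 (0.31) or KD_OE replicate 1 (0.28), and gave -0.02 with the GC correction. UTP15 gave 0.15 (adjusted p = 0.333), called higher without KD_NC replicate 1 (0.27, adjusted p = 0.0434). In KD_OE against KD_NC the falls of the factors not yet given ran from 0.86 in PNO1 to 0.25 in RRP12, and that of RRP12 was lost without KD_OE replicate 1 (-0.23, adjusted p = 0.0863) or 2 (-0.26, adjusted p = 0.0689) and without KD_NC replicate 1 (-0.21, adjusted p = 0.0607). UTP20 gave -0.30 there without KD_NC replicate 2. HEATR1, BMS1 and NAT10 were not called there, at 0.03, -0.11 and -0.18, and NAT10 was called without KD_NC replicate 2 (-0.24, adjusted p = 0.0479) or 3 (-0.23, adjusted p = 0.047) and with the GC correction (-0.18, adjusted p = 0.0328). IMP3, UTP15 and UTP4 share 31.23%, 3.86% and 1.23% of their exon bases with SNX33, ANKRA2 and CHTF8 on the other strand.

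Large subunit factors were lower in KD_OE than in NC_NC in 17 of 19 cases with a median of -1.07, and 12 of the 19 were at least 2-fold lower, beside the 7.49% of all tested genes. KD_OE against KD_NC called 15 of 19 lower with a median of -0.72, and KD_NC against NC_NC 11 of 19 with a median of -0.32. Among all tested genes 28.4%, 25.6% and 18.5% were called lower in these comparisons. MRTO4 (ENSG00000053372, chromosome 1, 19251539 to 19260128, plus strand), which holds the place of the ribosomal stalk protein during assembly, had 36.2, 38.5 and 36.5 CPM in KD_OE, 81.1, 77.9 and 84.5 CPM in KD_NC, and 97.8, 108 and 98.4 CPM in NC_NC. The 3 groups were separate. MRTO4, whose promoter holds CACGTG just past the RefSeq start, was 2.74-fold lower in KD_OE than in NC_NC (log2 -1.45 ± 0.0906, adjusted p = 1.96e-10). It was 2.19-fold lower in KD_OE than in KD_NC (log2 -1.13 ± 0.0903, adjusted p = 8.91e-09). Its smaller fall in KD_NC against NC_NC (-0.32 ± 0.0872, adjusted p = 0.00741) was lost without NC_NC replicate 2 (-0.27, adjusted p = 0.0543).

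RRS1 (ENSG00000179041), which helps place the small ribosomal RNA made by RNA polymerase III in the large subunit, had 24.6, 25.8 and 30.5 CPM in KD_OE, 51.0, 48.7 and 49.9 CPM in KD_NC, and 81.2, 88.9 and 78.3 CPM in NC_NC. It was separate in all groups and 3.08-fold lower in KD_OE than in NC_NC (log2 -1.62 ± 0.103, adjusted p = 2.41e-10). RRS1 was 1.85-fold lower in KD_OE than in KD_NC (log2 -0.89 ± 0.103, adjusted p = 9.48e-07) and 1.66-fold lower in KD_NC than in NC_NC (log2 -0.73 ± 0.0988, adjusted p = 1.6e-05). RRP1 (ENSG00000160214) and RRP1B (ENSG00000160208) are paralogs that lie near each other on chromosome 21 (43789513 to 43805293 and 43659548 to 43696079, plus strand). RRP1 had 37.0, 41.3 and 44.3 CPM in KD_OE, 66.1, 52.1 and 55.5 CPM in KD_NC, and 83.5, 89.1 and 84.2 CPM in NC_NC. RRP1B had 93.3, 92.0 and 92.1 CPM in KD_OE, 172, 183 and 151 CPM in KD_NC, and 212, 213 and 206 CPM in NC_NC. Neither gene overlapped between groups, and reads common to both could have been split between them by the counting. RRP1 gave log2 fold changes of -1.07 ± 0.105 in KD_OE against NC_NC (adjusted p = 7.4e-08), -0.50 ± 0.105 in KD_OE against KD_NC (adjusted p = 0.000605) and -0.57 ± 0.103 in KD_NC against NC_NC (adjusted p = 0.000324). RRP1B gave -1.18 ± 0.0876 (adjusted p = 1.78e-09), -0.87 ± 0.0872 (adjusted p = 1.73e-07) and -0.32 ± 0.0858 (adjusted p = 0.00765) in the same comparisons.

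NOP16 had the second-largest change of all members. It had 13.8, 15.7 and 15.9 CPM in KD_OE, 38.3, 29.2 and 41.5 CPM in KD_NC, and 49.4, 58.4 and 50.7 CPM in NC_NC, without overlap, and was 3.5-fold lower in KD_OE than in NC_NC (log2 -1.81 ± 0.13, adjusted p = 1.29e-09). NOP16 was 2.4-fold lower in KD_OE than in KD_NC (log2 -1.26 ± 0.13, adjusted p = 2.43e-07), the largest change among the members in that comparison, and fell by 0.54 in KD_NC against NC_NC. Exons of NOP16 share 7.93% of their bases with HIGD2A on the other strand. BOP1, PES1 and WDR12 form a complex needed for the processing of large subunit RNA. BOP1 had 47.0, 47.8 and 54.3 CPM in KD_OE, 105, 81.9 and 111 CPM in KD_NC, and 138, 153 and 145 CPM in NC_NC. The 3 genes fell by 1.55, 1.04 and 0.89 on the log2 scale in KD_OE against NC_NC and by 1.00, 0.72 and 1.03 in KD_OE against KD_NC. In KD_NC against NC_NC BOP1 fell by 0.55, PES1 by 0.32 and WDR12 gave 0.15 (adjusted p = 0.312). The call of PES1 there was lost without KD_NC replicate 2 (-0.17, adjusted p = 0.204), KD_OE replicate 1 (-0.29, adjusted p = 0.0534), NC_NC replicate 2 (-0.25, adjusted p = 0.147) or NC_NC replicate 3 (-0.35, adjusted p = 0.0515), and with the correction for GC content and length (-0.13, adjusted p = 0.199).

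Of the remaining large subunit factors, NOC2L, EBNA1BP2 and NIP7 fell by 1.15, 1.07 and 1.03 in KD_OE against NC_NC, DDX56 by 0.71, and the GTPases GNL2 and GNL3 by 0.56 and 0.45. In KD_OE against KD_NC NIP7, EBNA1BP2, NOC2L, GNL2, DDX56, DDX18 and GNL3 fell by 0.90, 0.78, 0.73, 0.54, 0.52, 0.45 and 0.43. NOC2L and EBNA1BP2 also fell by 0.42 and 0.28 in KD_NC against NC_NC, where NIP7, DDX56, GNL2, GNL3 and DDX18 gave -0.13, -0.20, -0.02, -0.02 and 0.19 without a call. The call of NOC2L was lost there without KD_NC replicate 2 (-0.29, adjusted p = 0.0507). That of EBNA1BP2 was lost without KD_OE replicate 1 (-0.26, adjusted p = 0.0533), KD_NC replicate 2 (-0.18, adjusted p = 0.148), NC_NC replicate 2 (-0.24, adjusted p = 0.113) or NC_NC replicate 3 (-0.30, adjusted p = 0.0534). NIP7 shares 20.15% of its exon bases with COG8 on the other strand. In KD_OE against NC_NC the helicase DDX18 fell by 0.26, a call lost without KD_OE replicate 3 (-0.24, adjusted p = 0.0508) or NC_NC replicate 1 (-0.24, adjusted p = 0.0629). NOC3L, a partner of NOC2L, gave 0.09 in KD_OE against NC_NC (adjusted p = 0.515), -0.19 in KD_OE against KD_NC (adjusted p = 0.168) and 0.27 in KD_NC against NC_NC (adjusted p = 0.0596). Without KD_NC replicate 1 NOC3L was called in both of the last comparisons (-0.30, adjusted p = 0.0184, and 0.38, adjusted p = 0.00595). WDR74 had 14.5, 11.6 and 16.6 CPM in KD_OE, 27.4, 12 and 18.7 CPM in KD_NC, and 36.2, 41.0 and 35.7 CPM in NC_NC. KD_NC replicate 2 lay within the KD_OE range of WDR74, and the gene fell by 1.40 in KD_OE against NC_NC and by 0.96 in KD_NC against NC_NC, with -0.44 in KD_OE against KD_NC (adjusted p = 0.145), which was called without that library (-0.74, adjusted p = 0.000634) and with no count filter (-0.48, adjusted p = 0.00301). PPAN and NOP2, a ribosomal RNA methyltransferase, were the lowest members, at mean counts of 60.1 and 16.0 per library. PPAN and NOP2 share 56.02% and 54.41% of their exon bases with PPAN-P2RY11 and AC006064.6 on the same strand, which had mean counts of 0.0 and 0.1, and how reads in the shared bases were counted is not stated. PPAN fell by 1.49 in KD_OE against NC_NC and by 0.97 in KD_NC against NC_NC, and gave -0.52 in KD_OE against KD_NC (adjusted p = 0.0965), called without KD_NC replicate 2 (-0.70, adjusted p = 0.0378) or KD_OE replicate 3 (-0.79, adjusted p = 0.0286). NOP2 gave 0.00 in KD_OE against NC_NC, with a 95% interval from -0.85 to 0.86.

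Per length, as TPM, which divides the counts by gene length, NPM1 was the highest member at 650.0 ± 7.7 TPM in KD_OE, 743 ± 57.6 TPM in KD_NC and 669 ± 38.4 TPM in NC_NC (SD, n = 3 each). NCL followed in NC_NC at 601 ± 23.5 TPM, a difference from NPM1 larger than either SD, and had 310.0 ± 9.56 TPM in KD_OE and 452 ± 34.6 TPM in KD_NC. DDX21 had 323 TPM in KD_OE, 369 TPM in KD_NC and 386 TPM in NC_NC, and stood close to NCL in KD_OE. NOLC1 had 182, 321 and 421 TPM and NOP10 163, 327 and 392 TPM in these groups. MYC had 286 ± 11.3 TPM in KD_OE, 309 ± 21.9 TPM in KD_NC and 257 ± 6.6 TPM in NC_NC. On this scale, which is not TMM-scaled, the mean of MYC was higher in KD_OE than in NC_NC, a difference that was not tested. NOP2 was the lowest member, under 1 TPM in each group.

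GC content varied with the size of the change among members. The exons of the 59 members had a median GC content of 50.6%, from 37.7% to 65.2%, and those of 16802 tested genes 48.1%. Across the 59 members, Spearman's correlation between GC content and log2 fold change was -0.591 in KD_OE against NC_NC, -0.343 in KD_OE against KD_NC and -0.667 in KD_NC against NC_NC, given as a description since genes of the same libraries are not independent. Across all tested genes it was -0.287, -0.0831 and -0.363. After correction of the counts for GC content and length the members' values were -0.266, -0.245 and -0.179. With that correction 57, 52 and 37 members were lower in the 3 comparisons, where 33.8%, 32.0% and 20.8% of all tested genes were lower. Several called values of members moved by over 1.5 times. In KD_OE against NC_NC the values became -0.75 for DDX10, -0.72 for UTP15, -0.67 for BMS1, -0.64 for DDX21, -0.63 for DDX18 and -0.49 for NOC4L. DDX10 and RRP12 gave -0.61 and -0.41 in KD_OE against KD_NC. For KD_NC against NC_NC, RRN3 and BMS1 gave -0.48 and -0.42, while RRP1, BOP1, NOC2L and BYSL gave -0.34, -0.27, -0.24 and -0.20. HEATR1, WDR75 and NOC3L, with GC contents of 41.5%, 37.7% and 37.7%, then gave -0.41, -0.50 and -0.29 in KD_OE against NC_NC, with adjusted p of 1.69e-05, 2.35e-06 and 0.00137. The part of GC content in the members' falls was not tested beyond this.

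**Figure D4:**
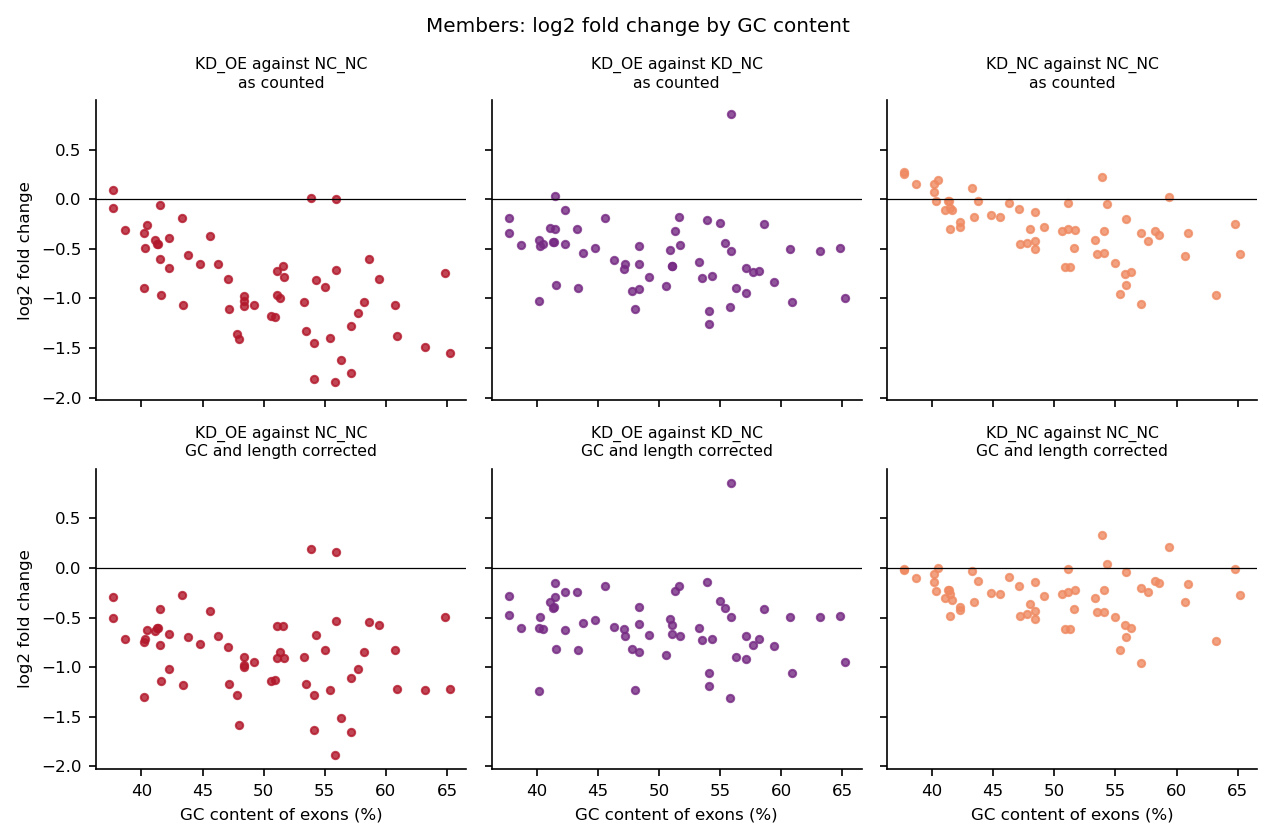
Log2 fold change of each of the 59 members (vertical) by the GC content of its exons in percent (horizontal), as counted (top) and after correction for GC content and length (bottom). The downward trend is steeper as counted, with Spearman's correlations of -0.591, -0.343 and -0.667 from left to right, than after correction, with -0.266, -0.245 and -0.179.

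Other genes of ribosome biogenesis had smaller median changes. Of 131 such genes on 4 lists, 85 were lower and 15 higher in KD_OE against NC_NC with a median of -0.45, 80 and 11 in KD_OE against KD_NC with a median of -0.39, and 43 and 11 in KD_NC against NC_NC with a median of -0.11. In that order of comparisons, these are 64.9% lower and 11.5% higher, 61.1% and 8.4%, and 32.8% and 8.4%. Among all tested genes the shares were 28.4% and 27.9%, 25.6% and 23.7%, and 18.5% and 16.0%. The difference from the 59 members was not tested.

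Of 44 further small subunit factors, 29 were lower (65.9%) and 5 higher (11.4%) in KD_OE against NC_NC. The counts were 29 (65.9%) and 4 (9.09%) in KD_OE against KD_NC, and 16 (36.4%) and 3 (6.82%) in KD_NC against NC_NC. Among all tested genes these shares were 28.4% and 27.9%, 25.6% and 23.7%, and 18.5% and 16.0%. TBL3 and RRP7A fell by 1.25 and 1.14 in KD_OE against NC_NC, while ESF1 and the kinase RIOK2 rose by 0.80 and 0.52, and RIOK2 gave 0.04 after the GC correction (adjusted p = 0.763). TBL3 and WDR3 fell by 0.89 and 0.86 in KD_OE against KD_NC, where ESF1 and DDX47 rose by 0.54 and 0.62, and TSR2 and DHX37 fell by 0.63 and 0.46 in KD_NC against NC_NC, where DCAF13 and NOL11 rose by 0.36 and 0.40. DDX47, at a mean count of 99.6, shares 36.53% of its exon bases with APOLD1 on the same strand, which had 85.38% of that count. The calls of DCAF13 and NOL11 were lost without NC_NC replicate 2 (0.29, adjusted p = 0.0838, and 0.30, adjusted p = 0.0662). With the GC correction that of DCAF13 was lost (0.09, adjusted p = 0.368), and ESF1 gave 0.36 in KD_OE against NC_NC, NOL11 0.21 and DHX37 -0.21 in KD_NC against NC_NC. Of 45 further large subunit factors, 32 were lower and 4 higher, 27 and 4, and 17 and 3 in KD_OE against NC_NC, KD_OE against KD_NC and KD_NC against NC_NC. These are 71.1% and 8.89%, 60.0% and 8.89%, and 37.8% and 6.67%. CCDC86 and PA2G4 fell by 1.48 and 1.35 in KD_OE against NC_NC, and RSL24D1 and SDAD1 rose by 0.77 and 0.35. PA2G4 and URB2 fell by 1.03 and 0.99 in KD_OE against KD_NC, where RSL24D1 and NOP53 rose by 0.52 and 0.49. DDX54 and RPF2, which works with RRS1, fell by 0.78 and 0.69 in KD_NC against NC_NC, where SBDS and SDAD1 rose by 0.60 and 0.40. The calls of SDAD1 were lost without NC_NC replicate 2 in KD_OE against NC_NC (0.25, adjusted p = 0.0775) and in KD_NC against NC_NC (0.31, adjusted p = 0.0542), and also with the GC correction (0.14, adjusted p = 0.112, and 0.18, adjusted p = 0.0595). That correction gave 0.34 for RSL24D1 in KD_OE against NC_NC and 0.38 for SBDS in KD_NC against NC_NC.

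Of 25 further genes of RNA polymerase I and snoRNP assembly, 15 were lower and 3 higher in KD_OE against NC_NC, 15 and 2 in KD_OE against KD_NC, and 9 and 3 in KD_NC against NC_NC. The shares of all tested genes called lower and higher were 28.4% and 27.9% in KD_OE against NC_NC. They were 25.6% and 23.7% in KD_OE against KD_NC, and 18.5% and 16.0% in KD_NC against NC_NC. POLR2E, a subunit common to the RNA polymerases, and the ATPase RUVBL2, which helps assemble snoRNPs, fell by 1.38 and 1.24 in KD_OE against NC_NC, where RPAP3 rose by 0.53. POLR2F, another common subunit, fell by 1.12 in KD_OE against KD_NC, where TAF1D rose by 0.36. In KD_NC against NC_NC PIH1D1 fell by 0.51, and the assembly factors SHQ1 and ZNHIT6 rose by 0.41 and 0.31. All 4 of these rises were lost with the GC correction, at 0.02 in RPAP3 (adjusted p = 0.872), 0.07 in TAF1D (adjusted p = 0.379), 0.18 in SHQ1 (adjusted p = 0.221) and 0.04 in ZNHIT6 (adjusted p = 0.729). That of TAF1D was also lost without KD_OE replicate 1 (0.27, adjusted p = 0.0519), and that of ZNHIT6 without NC_NC replicate 2 (0.30, adjusted p = 0.0646) or 3 (0.27, adjusted p = 0.104). SHQ1 was not called without KD_NC replicate 3 (0.32, adjusted p = 0.0912), NC_NC replicate 1 (0.40, adjusted p = 0.0692) or NC_NC replicate 2 (0.39, adjusted p = 0.0747). TAF1C, a subunit of the factor that selects the RNA polymerase I promoter, had 81.8, 82.0 and 87.1 CPM in KD_OE, 57.9, 43.6 and 47.8 CPM in KD_NC, and 62.8, 70.2 and 68.3 CPM in NC_NC. Its 3 groups did not overlap, and it was higher in KD_OE than in KD_NC (log2 0.75 ± 0.104, adjusted p = 8.23e-06) and than in NC_NC (log2 0.32 ± 0.103, adjusted p = 0.0133). The call against NC_NC was lost without KD_OE replicate 3 (0.28, adjusted p = 0.0519) or NC_NC replicate 1 (0.26, adjusted p = 0.0799), and its value was 0.51 with the GC correction. Of 17 genes of the exosome and other nucleases that trim ribosomal RNA, 9 were lower (52.9%) and 3 higher (17.6%) in KD_OE against NC_NC. The counts were 9 (52.9%) and 1 (5.88%) in KD_OE against KD_NC. In KD_NC against NC_NC they were 1 (5.88%) and 2 (11.8%) with a median of 0.0, beside 18.5% and 16.0% of all tested genes. The exonuclease ISG20L2 and the exosome subunit EXOSC2 fell by 0.96 and 0.86 in KD_OE against NC_NC and by 1.03 and 0.62 in KD_OE against KD_NC, where EXOSC8 rose by 0.42. The catalytic subunit DIS3 rose by 0.66 in KD_OE against NC_NC, with 0.15 after the GC correction (adjusted p = 0.0636), and the helicase MTREX rose by 0.40, a call lost with that correction (0.03, adjusted p = 0.787) and without NC_NC replicate 2 (0.28, adjusted p = 0.059). In KD_NC against NC_NC EXOSC3 fell by 0.53, DIS3 rose by 0.61, with 0.38 after the GC correction, and XRN2 rose by 0.24. The call of XRN2 was lost in 5 of 9 cases of leaving out 1 library (0.21 to 0.27, adjusted p up to 0.152), with no count filter (0.27, adjusted p = 0.0523), with the replicate block (0.24, adjusted p = 0.0561) and with the GC correction (0.09, adjusted p = 0.361).

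**Figure D5:**
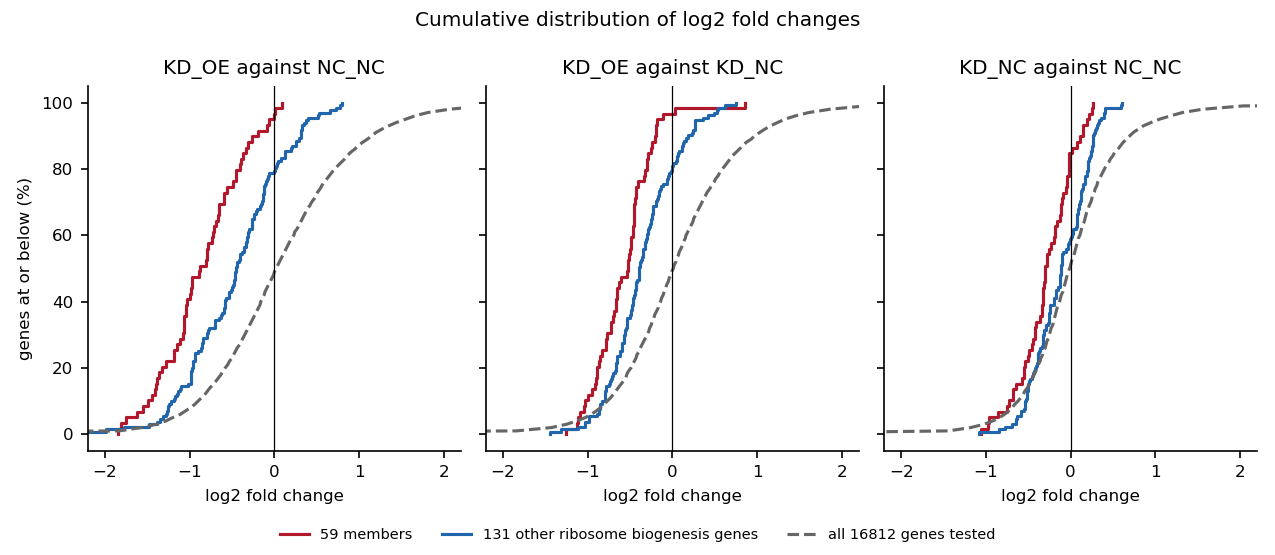
Cumulative share of genes (vertical, in percent) at or below each log2 fold change (horizontal) for the 59 members, 131 other ribosome biogenesis genes and all 16812 genes tested. The medians in KD_OE against NC_NC are -0.88, -0.45 and 0.02.

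Of 17 tested partners and antagonists of MYC, 5 were lower and 3 higher in KD_OE against NC_NC (29.4% and 17.6%, beside 28.4% and 27.9% of all tested genes). The counts were 1 and 3 in KD_OE against KD_NC, where 25.6% and 23.7% of all tested genes were lower and higher, and 5 and 2 in KD_NC against NC_NC, where these shares were 18.5% and 16.0%. MXD1, a repressor that competes with MYC for MAX, had 66.2, 60.0 and 61.3 CPM in KD_OE, 36.2, 45.4 and 39.6 CPM in KD_NC, and 25.6, 21.0 and 22.7 CPM in NC_NC. Its groups were separate and in the order opposite to the members' sum, with log2 fold changes of 1.44 ± 0.111 in KD_OE against NC_NC (adjusted p = 3.18e-09), 0.63 ± 0.107 in KD_OE against KD_NC (adjusted p = 7.83e-05) and 0.81 ± 0.111 in KD_NC against NC_NC (adjusted p = 1.98e-05). MXI1, of the same family, rose by 0.85 in KD_OE against NC_NC and 0.77 in KD_NC against NC_NC, and MXD3 fell by 0.85 and 0.94. Exons of MXD3 share 22.47% of their bases with PRELID1 on the other strand and 17.97% with RAB24 on the same strand. PRELID1 had a mean count of 1415.9, RAB24 66.8 and MXD3 183.9. MLXIPL rose by 3.43 in KD_OE against KD_NC at low levels of 2.96, 1.65 and 1.59 CPM in KD_OE and 0.291, 0.149 and 0.117 CPM in KD_NC. The mitotic kinase AURKA, which also stabilises MYC proteins, fell by 1.63, 0.69 and 0.94 in KD_OE against NC_NC, KD_OE against KD_NC and KD_NC against NC_NC.

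Well-known MYC targets outside the nucleolus were lower in 18 of 25 and higher in 2 of 25 cases in KD_OE against NC_NC, with a median of -0.79. The counts were 19 and 3 in KD_OE against KD_NC, with a median of -0.55. In KD_NC against NC_NC they were 6 and 2, with a median of -0.06. Among all tested genes, 28.4% were lower and 27.9% higher in KD_OE against NC_NC. Those shares were 25.6% and 23.7% in KD_OE against KD_NC, and 18.5% and 16.0% in KD_NC against NC_NC. The difference of these targets from all tested genes was not tested. CDC25A, a phosphatase of the cell cycle, had 10.4, 11.9 and 10.8 CPM in KD_OE, 41.8, 41.2 and 37.8 CPM in KD_NC, and 43.0, 50.6 and 45.3 CPM in NC_NC. KD_OE stood apart, with a log2 fold change of -2.06 ± 0.112 against NC_NC (adjusted p = 3.42e-11) and -1.86 ± 0.112 against KD_NC (adjusted p = 1.79e-10). HSPE1, a mitochondrial chaperonin, fell by 1.91 and 1.68 in the same comparisons, and shares 14.21% of its exon bases with HSPD1 on the other strand. EIF4A1, a translation initiation helicase, rose by 0.69 in KD_OE against NC_NC, at a mean count of 150.1 per library. Its exons share 41.12% and 29.83% of their bases with AC016876.2 and SENP3-EIF4A1 on the same strand. How reads in those shared bases were counted is not stated. LDHA, lactate dehydrogenase A, was lower in KD_OE than in KD_NC (-1.24, adjusted p = 3.18e-09) and higher in KD_NC than in NC_NC (0.45, adjusted p = 0.000827). SHMT2, a mitochondrial serine enzyme, went the other way, at 0.80 (adjusted p = 1.83e-06) and -0.56 (adjusted p = 0.000226), and rose by 0.25 in KD_OE against NC_NC. That last call of SHMT2 was lost without any 1 of the 6 libraries compared (0.18 to 0.28, adjusted p 0.0524 to 0.172), with no count filter (0.23, adjusted p = 0.0562) and with the replicate block (0.24, adjusted p = 0.0508), and its value was 0.41 with the GC correction. CCND2, a cyclin, rose by 0.89 in KD_OE against KD_NC and fell by 0.76 in KD_NC against NC_NC, where CAD fell by 0.58 and PPAT, a purine enzyme, rose by 0.34. With the GC correction CAD gave -0.38 and PPAT -0.04 (adjusted p = 0.768), and the call of PPAT was also lost without KD_NC replicate 2 (0.23, adjusted p = 0.109), NC_NC replicate 2 (0.27, adjusted p = 0.14) or NC_NC replicate 3 (0.32, adjusted p = 0.0879).

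Of 15 genes of the nucleolar stress response, which sets in when ribosome assembly is disturbed, 5 were lower and 5 higher in KD_OE against NC_NC, 3 and 4 in KD_OE against KD_NC, and 5 and 3 in KD_NC against NC_NC. In KD_OE against NC_NC these are 33.3% each, beside 28.4% lower and 27.9% higher among all tested genes. Those shares were 25.6% and 23.7% in KD_OE against KD_NC, and 18.5% and 16.0% in KD_NC against NC_NC. GDF15, a secreted stress cytokine, had 285, 296 and 322 CPM in KD_OE, 117, 105 and 124 CPM in KD_NC, and 62.4, 73.6 and 67.6 CPM in NC_NC, and rose by 2.15 ± 0.0961 in KD_OE against NC_NC (adjusted p = 2.84e-12). RRM2B rose by 0.88 and FDXR fell by 1.16 in that comparison, and by 0.54 and 0.70 in KD_NC against NC_NC. With the GC correction RRM2B gave 0.40 and 0.24 in these comparisons, and FDXR -0.46 in KD_NC against NC_NC. In KD_OE against KD_NC GDF15 and BBC3 rose by 1.38 and 1.2, and ZMAT3 and RPL23 fell by 0.57 and 0.32. RPL23 gave -0.20 without KD_NC replicate 3.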

How the data were processed

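The authors deposited 1 table of raw counts per gene, whole numbers that were not normalised, for 58735 genes in 9 libraries. Per the labels' protocols, RNA came from a TRIzol extraction, and a NEBNext Ultra kit, which does not mark strand, was used for the libraries. The build hg19 and the tools featureCounts 1.5.0-p3, HISAT2 2.0.5 and StringTie 1.3.3b are named, per the submitters' processing notes. The coordinates in the table matched GENCODE v29 on GRCh38 for 58735 of 58735 genes, so positions are given on GRCh38. Strand and multimapping settings were not given in the sources used here.

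In R 4.3.3, edgeR 4.0.16 was used with TMM factors and filterByExpr (minimum count 10), which kept 16812 genes. A quasi-likelihood model was fitted to all 9 libraries with 6 residual degrees of freedom, and the Benjamini-Hochberg adjustment ran over the 16812 genes. Each standard error is the size of the log2 fold change over the root of its F statistic. At these depths 3 counts were worth between 0.149 and 0.203 CPM, which covers counting error only. TPM used the deposited gene lengths. The steps were tested on simulated data in which all groups shared the spread of each gene. The wider spread within KD_NC was therefore not covered by that test. Replicate numbers did not pair the samples (correlations of -0.111 to 0.063 over 9 pairs of same-numbered libraries).

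Up to 2 higher and 2 lower called genes with the lowest adjusted p were named per list and comparison. MYC, AMIGO2 and CAPN2 were always named, and values of other members were added after they were seen. The members and all lists were chosen with earlier results of these data known. Alternatives were 9 fits that each left out 1 library, other scalings and filters, only the groups compared, the replicate block, GC and length correction, and DESeq2 1.42.0. The values of 1 further gene that the naming rule selects are not reported here.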

Additional observations from a re-analysis of the deposited data

How the results depend on the processing

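Over all 18 alternatives, 23 to 37 members were lower in KD_NC against NC_NC, 46 to 54 in KD_OE against KD_NC and 50 to 57 in KD_OE against NC_NC. Upper-quartile factors moved the median of all genes tested in KD_OE against NC_NC to 0.13 and that of the members to -0.78, and gave -0.46 for the members in KD_OE against KD_NC. A mean of at least 5 CPM gave -0.79 in KD_OE against NC_NC, and the GC content and length correction gave -0.61 in KD_OE against KD_NC, with and without the replicate block. Leaving out single libraries gave members' medians of -0.32 to -0.20 in KD_NC against NC_NC, -0.63 to -0.52 in KD_OE against KD_NC and -0.91 to -0.85 in KD_OE against NC_NC.

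Few members were higher, and their number depended on the setting. In KD_NC against NC_NC it was 4 with upper-quartile factors or the 5 CPM minimum, 2 with DESeq2 and with its size factors, 0 with only the groups compared and with the replicate block, and 0 to 4 without single libraries. It was 1 with the GC correction in KD_OE against NC_NC, with and without the block, where that member was MYC, and 0 to 1 without single libraries in KD_OE against KD_NC, where NOP2 rose without KD_NC replicate 2.

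MYC was no longer called in KD_NC against NC_NC without a filter (0.25, adjusted p = 0.0662), with only the groups compared (0.25, adjusted p = 0.0553) or with the replicate block (0.22, adjusted p = 0.0802). In KD_OE against KD_NC its call was lost with upper-quartile factors (-0.15, adjusted p = 0.144), a mean of at least 5 CPM (-0.15, adjusted p = 0.103), only the groups compared (-0.21, adjusted p = 0.0951), the replicate block (-0.21, adjusted p = 0.0714), the GC correction (-0.14, adjusted p = 0.0502) and that correction with the block (-0.14, adjusted p = 0.0698). In KD_OE against NC_NC it was called with the GC correction (0.19, adjusted p = 0.00829), also with the block (0.19, adjusted p = 0.0142). That correction gave 0.33 in KD_NC against NC_NC (adjusted p = 0.000153). Without single libraries MYC gave 0.19 to 0.31 in KD_NC against NC_NC and -0.31 to -0.19 in KD_OE against KD_NC.

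PPAT in KD_NC against NC_NC turned to -0.04 with the GC correction, with and without the block. Of 1997 values of 111 results for named genes other than MYC, 1940 kept direction and side of the threshold. MYC, whose calls changed as given above, is not in this count. The causes were not tested.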
